A study of Mus musculus with 8 samples.

Results

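The interferon regulatory factors measured here were the 8 genes Irf1, Irf2, Irf3, Irf4, Irf5, Irf7, Irf8 and Irf9, chosen by symbol from the 21080 genes of the expression tables, and all 8 had values in all 8 samples. RNA came from bone marrow-derived macrophages (BMDMs), which are bone marrow cells grown into macrophages with M-CSF. To find targets of Nudt21, a subunit of the cleavage factor that helps choose where the 3′ end of an mRNA is cut, the study compared WT and Nudt21-cKO cells at 0 h (taken as untreated) and after IFNγ/LPS, with 2 samples in each of the 4 groups. WT cells came from sex-matched littermates that carry LysM-Cre, and Nudt21-cKO cells came from Nudt21 fl/fl LysM-Cre mice, so that Cre was present in every group. The paper's methods give the stimulation as IFNγ overnight and then LPS for 4 h, so the time of 4 h counts the LPS only. All mice were C57BL/6, their age is not given in the sources used here, and each sample pooled BMDMs of 2 mice. LysM-Cre is driven by the lysozyme M promoter and acts in myeloid cells generally, not in macrophages alone.

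Interferon regulatory factors share an N-terminal DNA-binding domain that reads GAAA repeats in the promoters of interferon-stimulated and inflammatory genes. Some are made on demand after interferon or LPS (Irf1, Irf7), some wait in the cytosol until a kinase activates them (Irf3, Irf5), Irf9 is the DNA-binding part of the complex ISGF3, and Irf4 and Irf8 act with partners such as PU.1 and BATF in myeloid and lymphoid cells. Irf2 binds many of the sites of Irf1 and is best known as its antagonist.

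Expression was read as coverage, the mean number of reads over each base of a gene, which is already per length and can be compared between genes within a sample. Coverage summed over genes lay between 14950347 and 17954882 in the 8 samples, and the number of reads behind a value is not given, so the counting error of single values is unknown. Nudt21 itself had a coverage of 679 ± 54.4 in WT and 165 ± 9.87 in cKO samples at 0 h, and 561 ± 20.1 and 129 ± 19.2 at 4 h (mean ± SD, n = 2 each), so the targeted gene was lower in cKO at both times. The median gene was not level between groups. On the log2 scale it differed by 0.10 for cKO against WT at 0 h and by 0.31 at 4 h, and by -1.27 for 4 h against 0 h in WT and -1.05 in cKO. Differences of the Irf genes are therefore given on the deposited scale and also relative to that median. All 7 macrophage markers were well covered, with summed levels of 118000 to 131000 at 0 h and 50600 to 64900 at 4 h, while the 4 B cell markers summed to at most 4.36. The 5 T cell markers summed to 141 to 198 at 0 h and 16.3 to 29.9 at 4 h. Most of this was Cd4 (13.4 to 197 over the samples), and Cd3e and Cd3g did not exceed 1.13. The neutrophil markers summed to 763 to 1080 at 0 h and 308 to 377 at 4 h, and the fibroblast markers to 15.2 to 206 over all samples.

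The genes lie on 6 chromosomes of GRCm38. Irf1 is at chr11:53770014-53778374, Irf2 at chr8:46739732-46847458, Irf3 at chr7:44997648-45002848, Irf4 at chr13:30749226-30766976, Irf5 at chr6:29526625-29541871, Irf8 at chr8:120736358-120756694 and Irf9 at chr14:55603571-55610030, all on the plus strand, and Irf7 is at chr7:141262706-141266481 on the minus strand. All are protein-coding. Irf5 shares 411 exon bases (14.1% of its own) with Tnpo3 on the opposite strand, and Irf9 shares 123 bases (2.28%) with Rnf31 on its own strand. Irf1, Irf3 and Irf7 share 3.4%, 2.56% and 1.19% of their exon bases with a gene on the opposite strand. Whether the counting used strand is not stated in the sources used here, so reads in these stretches cannot be assigned with certainty.

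Promoter sequence is shown because the stimulus acts on such elements: IFNγ through gamma-activated sites, LPS through NF-κB and the interferons it induces through ISGF3. RefSeq promoter windows (GRCm38.p6, 250 bases before to 50 bases after a start site) were available for all 8 genes, and 3 motifs were searched on both strands. These were the gamma-activated site GAS (TTCNNNGAA), the core of the interferon-stimulated response element (GAAANNGAAA) and the κB site (GGGNNTTTCC). GAS letters were found in 3 of the 8 genes, against 9.55% of all 27025 genes, and the other two motifs in 1 gene each, against 3.99% for the response element and 1.89% for κB. The matches, in capitals and all on the plus strand, were these, with the number of bases before the start site at which each begins given after them.
Irf1 GAS, chr11:53769914-53769942: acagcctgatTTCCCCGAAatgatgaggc
Irf8 GAS, chr8:120736177-120736205: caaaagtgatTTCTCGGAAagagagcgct
Irf8 GAS, chr8:120736195-120736223: aagagagcgcTTCAGAGAAggcggatttg
Irf2 GAS, chr8:46739511-46739539: aaattgacttTTCCGAGAAatgatgaaag
Irf2 response element, chr8:46739495-46739523: tggggaagtGAAAATGAAAttgacttttc
Irf2 κB, chr8:46739718-46739747: cgggggtgggGGGGATTTCCagcctcggct
The Irf1 match begins 90 bases before the start site, the Irf8 matches 171 and 153 bases before it, and the Irf2 matches 224, 241 and 17 bases before it. Irf2 had all 3 motifs and Irf1 only the GAS. The windows of Irf3, Irf4, Irf5, Irf7 and Irf9 held none of these letters, which says nothing about other stretches of those genes. A match is a description of the sequence and not a measured binding site.

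Nudt21 protein binds UGUA in 3′UTRs, so these letters were counted in each gene's longest 3′UTR among GENCODE M21 transcripts matched to RefSeq. Irf7, the member with the largest genotype difference at 4 h, had 3 UGUA in 519 bases, each in capitals here with its position in the 3′UTR counted from the first base after the stop codon.
Irf7 UGUA at 68: ctccttgcTGTAtagtgtct
Irf7 UGUA at 91: gtggacctTGTAgagtccct
Irf7 UGUA at 245: atgccaggTGTActtgggaa
Irf3 and Irf5 had none in 502 and 534 bases, and Irf9 had 3 in 999 bases. Irf1 had 8 in 944 bases, Irf2 5 in 1236 bases, Irf8 6 in 1519 bases and Irf4 15 in 3309 bases. Over the 14845 genes with such a transcript, very short 3′UTRs left out, the median count was 5 and the median 3′UTR had 1085 bases. Per kilobase Irf1 had 8.47 UGUA and Irf7 5.78, against a median of 5.07 over these genes. The other members lay below that median, Irf4 at 4.53, Irf2 at 4.05, Irf8 at 3.95, Irf9 at 3.0, and Irf3 and Irf5 at 0. Cleavage sites and 3′UTR usage were not analysed here.

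The order of the family changed with stimulation. At 0 h, Irf5 and Irf8 were the most abundant members in every sample, and Irf5 alone took 34.8% ± 0.707 of the summed Irf coverage in WT and 32.3% ± 0.0707 in cKO (SD, n = 2). Irf2 followed in both genotypes. Below it Irf1 stood 1.05 times above Irf3 in WT with overlapping samples, while in cKO Irf3 came next and Irf9 and Irf1 overlapped at a ratio of 1.0. Irf7 was seventh and Irf4 last. At 4 h the order was Irf8, Irf1, Irf7, Irf5, Irf2, Irf9, Irf3 and Irf4 in every sample of both genotypes, and no neighbours overlapped within a genotype. The closest neighbours at 4 h were Irf2 and Irf9 in cKO, at a ratio of 1.09. The 8 genes together took 0.063 to 0.074% of all coverage at 0 h and 0.385 to 0.43% at 4 h. Irf8 ranked 65 to 72 among all genes in WT at 4 h and 81 to 89 in cKO, so that it was among the most covered genes of the stimulated cells. In WT Irf7 ranked between 6576 and 7164 at 0 h and between 292 and 301 at 4 h. In cKO it ranked between 7446 and 7478 at 0 h and between 146 and 163 at 4 h.

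**Figure D1:**
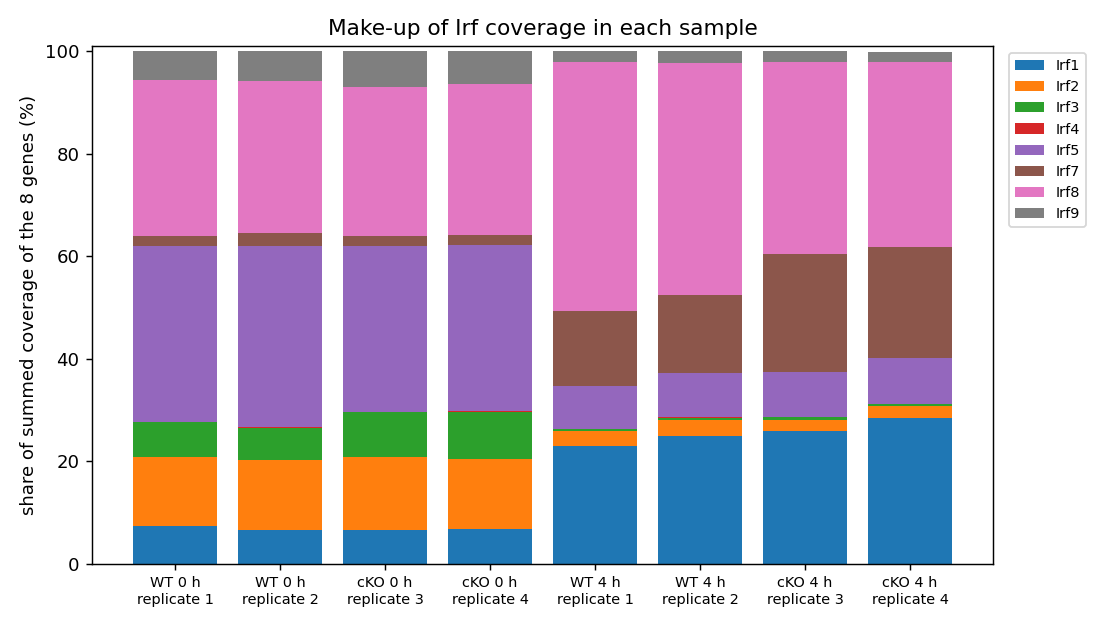
Share of the summed coverage of the 8 Irf genes (%) taken by each gene, 1 bar per sample, stacked in the order of the legend. Irf5 and Irf8 fill most of the 0 h bars, and Irf8, Irf1 and Irf7 fill most of the 4 h bars, with a wider Irf7 band in cKO (22.4%) than in WT (14.9%).

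To see how IFNγ/LPS changed the family, 4 h was compared with 0 h within each genotype. A gene was called when its fold change was above 1.5 with an unadjusted limma p under 0.05, and the p adjusted over all genes is given beside it. In WT 5 of the 8 genes rose (Irf1, Irf4, Irf7, Irf8, Irf9) and Irf3 fell, against 11.9% of all genes called higher and 55.1% called lower. In cKO 6 rose, the same 5 and Irf5, and Irf3 fell, against 13.7% higher and 53.2% lower. By the adjusted p 5 genes passed in WT and 6 in cKO, against 64.8% and 69.7% of all genes, Irf4 being the one lost in each. The median over the 8 genes was a log2 fold change of 1.39 in WT and 1.43 in cKO, while the median gene lay at -1.27 and -1.05. The values at the 2 times come from separate tables with no scaling between them. With samples centred on their medians 7 of the 8 genes were called higher in each genotype, Irf3 was not called, and 33.5% of all genes were called higher in WT and 32.7% in cKO.

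**Figure D2:**
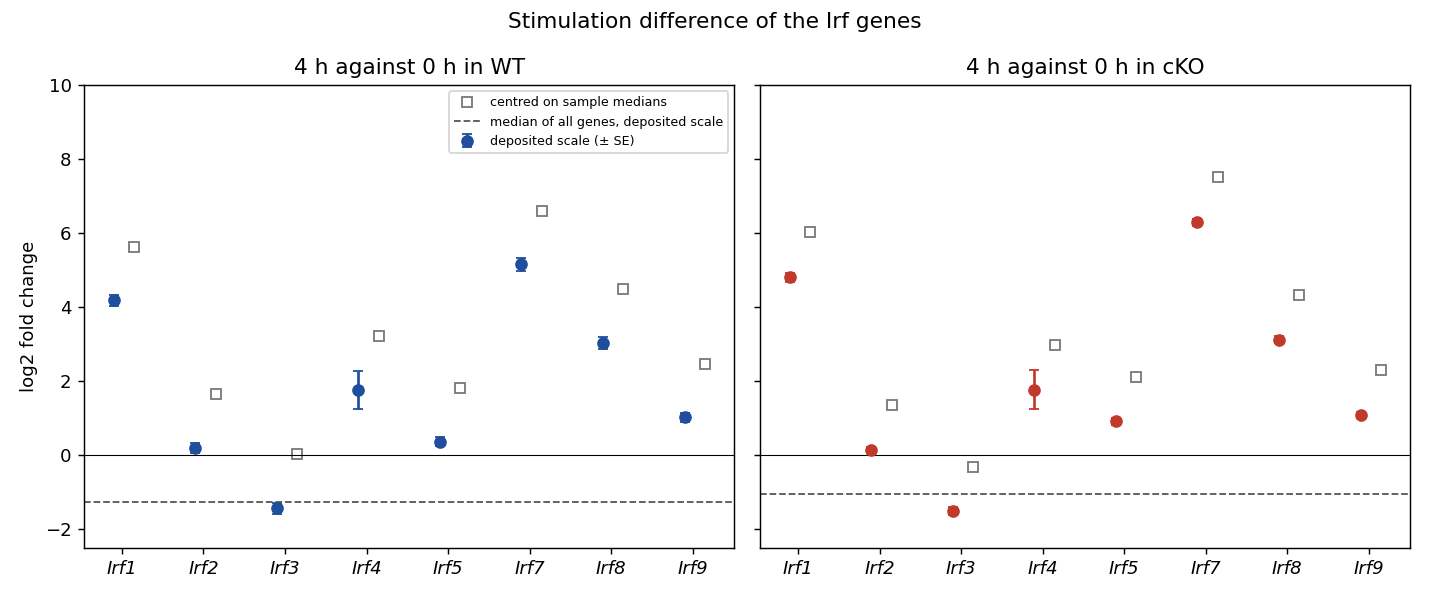
Log2 fold change of coverage, 4 h against 0 h, for the 8 Irf genes in WT (left) and cKO (right). Filled points with SE bars are on the deposited scale, open squares are after centring each sample on its median, and the dashed line is the median of all genes; Irf7 lies highest in both panels (5.15 and 6.29) and Irf3 lowest (-1.44 and -1.51).

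Among the activator and antagonist pair, Irf1, the factor made rapidly downstream of IFNγ, rose 18.1-fold in WT. Its coverage was 853 and 731 in WT at 0 h and 14179 and 14391 at 4 h. In cKO it was 687 and 765 at 0 h and 19303 and 21570 at 4 h, a 28.1-fold rise. The 4 h samples lay far above the 0 h samples in both genotypes, with log2 fold changes of 4.18 (SE 0.15, adjusted p = 0.00213) and 4.81 (SE 0.12, adjusted p = 0.00117). Irf2 was close to level on this scale. Coverage of the WT samples was 1573 and 1520 at 0 h and 1840 and 1715 at 4 h, and that of the cKO samples 1507 and 1552 at 0 h and 1714 and 1672 at 4 h. Its log2 fold changes of 0.20 (adjusted p = 0.253) and 0.15 (adjusted p = 0.206) were not called, although the samples of the 2 times did not overlap, as was so for 85.6% of all genes in WT and 87.2% in cKO. Relative to the median gene Irf2 lay at 1.47 and 1.20, and it was called higher after centring.

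The balance of the pair turned over. The ratio of Irf1 to Irf2 within a sample was 0.542 and 0.481 in WT at 0 h and 7.71 and 8.39 at 4 h. In cKO it was 0.456 and 0.493 at 0 h and 11.3 and 12.9 at 4 h. Irf2 was thus the more covered gene of the pair in all 4 resting samples and Irf1 in all 4 stimulated samples. At 4 h both cKO ratios lay above both WT ratios, and at 0 h the groups overlapped. An exact two-sided permutation test of 2 against 2 samples cannot go below p = 0.33, so ratios are given with no test.

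Of the 2 factors that turn on the type I interferon genes, the constitutive Irf3 fell and the inducible Irf7 rose. Irf3 coverage of the WT samples was 798 and 711 at 0 h and 273 and 284 at 4 h. That of the cKO samples was 929 and 1042 at 0 h and 343 and 348 at 4 h. Coverage was lower in every stimulated sample, with log2 fold changes of -1.44 in WT (SE 0.14, adjusted p = 0.00621) and -1.51 in cKO (SE 0.10, adjusted p = 0.00298). This was close to the fall of the median gene. Relative to it Irf3 lay at -0.16 and -0.46, and with centred samples its log2 fold change turned to 0.02 in WT and stood at -0.31 in cKO, neither of which was called. The fall stayed called with equal total coverage (-1.39 in WT, limma adjusted p = 0.00833, and -1.55 in cKO, adjusted p = 0.00168). It also stayed called with quantile normalization (-0.656 in WT and -0.965 in cKO).

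Irf7, the factor that amplifies the type I interferon response, had the largest fold change of the 8 genes. Its coverage was 227 and 278 in WT at 0 h and 9105 and 8745 at 4 h. In cKO it was 204 and 224 at 0 h and 17146 and 16441 at 4 h. These were rises of 35.5-fold in WT (log2 fold change 5.15, SE 0.17, adjusted p = 0.00199) and 78.4-fold in cKO (log2 fold change 6.29, SE 0.10, adjusted p = 0.000973). Of all genes tested, 97.7% had a lower log2 fold change than Irf7 in WT and 98.3% in cKO. The ratio of Irf7 to Irf3 within a sample was 0.285 and 0.391 in WT at 0 h and 33.4 and 30.8 at 4 h, and in cKO it was 0.22 and 0.215 at 0 h and 50.1 and 47.3 at 4 h. At both times the samples of the 2 genotypes did not overlap in this ratio, with cKO lower at 0 h and higher at 4 h.

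Irf5, which acts below MyD88 and is linked to inflammatory macrophages, had more coverage at 4 h in both genotypes. Its coverage was 3996 and 3930 in WT at 0 h and 5141 and 5020 at 4 h. In cKO it was 3408 and 3657 at 0 h and 6519 and 6716 at 4 h. The stimulated samples lay above the resting ones. The log2 fold change of 0.36 in WT (SE 0.12, adjusted p = 0.0786) was not called, and the rise of 0.91 in cKO (SE 0.09, adjusted p = 0.00559) was. After centring both were called (1.81, adjusted p = 0.00739, and 2.11, adjusted p = 0.00146), and the interaction that tests the difference did not pass on either scale (adjusted p = 0.0935 on the deposited scale, 0.394 centred). Tnpo3, the gene that overlaps Irf5, had means of 888 in WT and 986 in cKO at 0 h and 610 and 644 at 4 h. Its part in the Irf5 value was not tested.

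Irf8, which with PU.1 directs the monocyte and dendritic lineages and takes part in Il12b transcription, became the most covered member. Its coverage was 3544 and 3307 in WT at 0 h and 29915 and 26002 at 4 h. In cKO it was 3065 and 3325 at 0 h and 28105 and 27249 at 4 h. The rise was 8.15-fold in WT (log2 fold change 3.03, SE 0.15, adjusted p = 0.00283) and 8.67-fold in cKO (log2 fold change 3.12, SE 0.09, adjusted p = 0.00137).

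Irf4, known for alternative macrophage activation and for lymphocytes, was the least covered member in every sample. At 0 h the WT samples had 6.81 and 16.2 and the cKO samples 6.33 and 14.9, so samples of 1 group differed by 1.24 and 1.22 on the log2 scale, against a median gap of 0.17 and 0.14 over genes with a mean of at least 10. At 4 h the WT samples had 33.5 and 38.5 and the cKO samples 30.6 and 36.4. All 4 stimulated samples lay above all 4 resting ones, with log2 fold changes of 1.76 (SE 0.51, adjusted p = 0.0583) and 1.77 (SE 0.52, adjusted p = 0.0578), called by the fold and unadjusted p but not by the adjusted p. The call was lost when either 4 h sample of a genotype was left out, with log2 fold changes of 1.86 and 1.66 in WT and 1.90 and 1.64 in cKO. Leaving out a 0 h sample moved the log2 fold change further, to 1.14 or 2.38 in WT and to 1.16 or 2.38 in cKO. Irf8 exceeded Irf4 204 to 520 times at 0 h and 676 to 918 times at 4 h.

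Since Irf8 and Irf4 are also dendritic cell factors, markers of those cells stand beside them. The 6 dendritic cell markers summed to 12.1 to 34.9 in WT and 18.1 to 21.3 in cKO at 0 h, and to 1260 to 1990 in WT and 1070 to 1120 in cKO at 4 h. At 4 h Clec9a made up most of this, and over the 8 samples it ranged from 2.9 to 1890. Flt3, the growth factor receptor of dendritic cells, lay between 0.842 and 3.54. Siglech, a marker of the plasmacytoid kind, lay between 1.85 and 9.39. Xcr1 ranged from 0 to 52.4, Zbtb46 from 2.48 to 23.9 and Ccr9 from 0.522 to 43.4. In such bulk samples, more cells of a type and more RNA per cell cannot be told apart, and the part of these cells in the Irf8 and Irf4 values was not tested.

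Irf9, the DNA-binding subunit of ISGF3, rose about as much in both genotypes. Its coverage was 656 and 651 in WT at 0 h and 1329 and 1318 at 4 h. In cKO it was 728 and 724 at 0 h and 1526 and 1576 at 4 h. The rise was 2.02-fold in WT (log2 fold change 1.02, SE 0.12, adjusted p = 0.00857) and 2.14-fold in cKO (log2 fold change 1.09, SE 0.08, adjusted p = 0.00331). Replicates of Irf9 differed by at most 0.05 on the log2 scale, the tightest agreement among the 8 genes. Rnf31, which shares bases with Irf9, also had more coverage at 4 h (means of 1302 in WT and 1774 in cKO) than at 0 h (400 and 419), and its part in the Irf9 value was not tested.

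**Figure D3:**
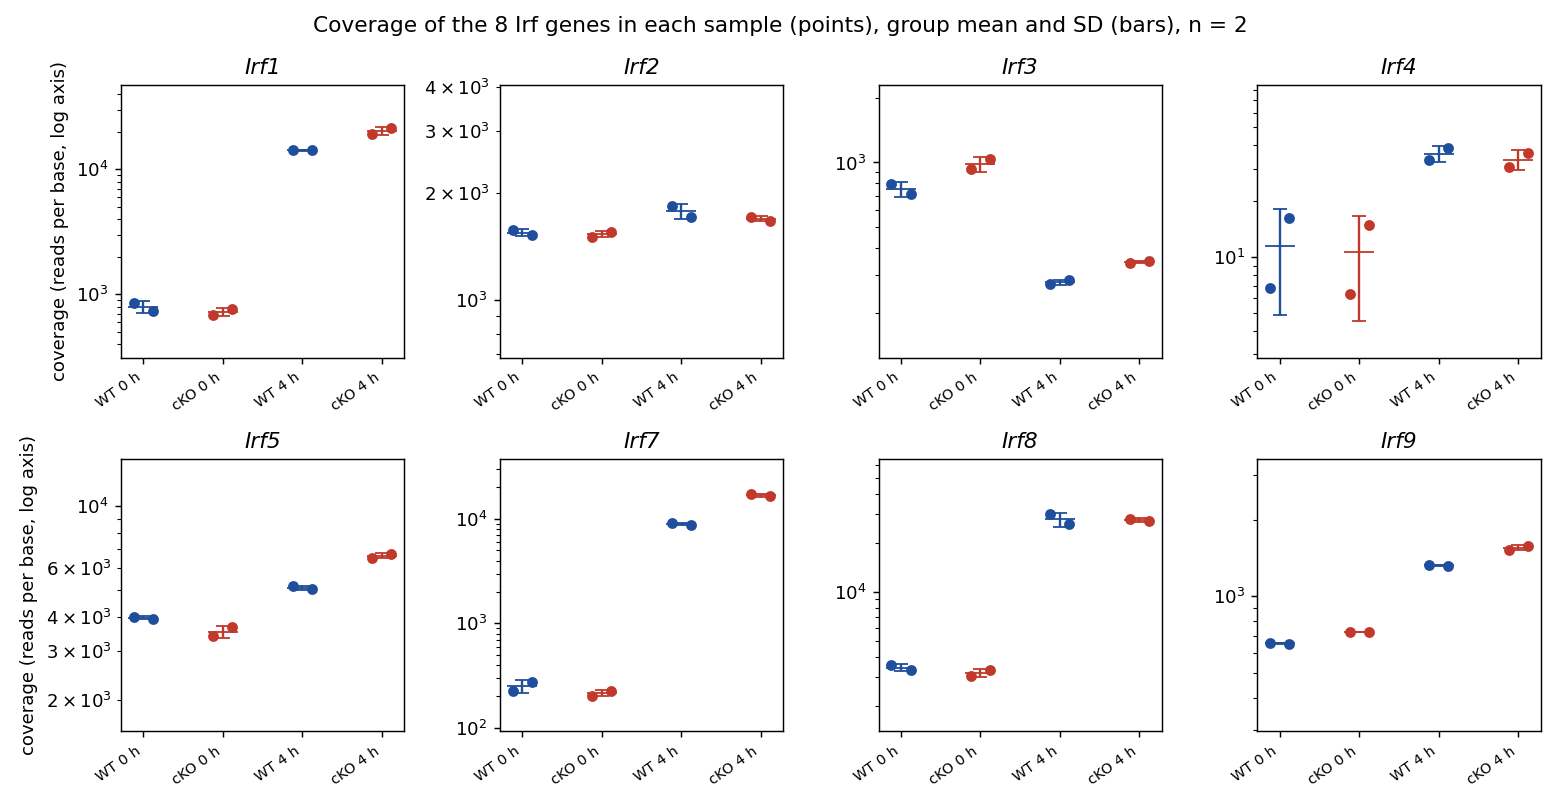
Coverage (reads per base, log axis with its own range in each panel) of each Irf gene in the 8 samples. Points are samples and bars are the mean and SD (n = 2) for WT (blue) and cKO (red) at 0 h and 4 h; at 4 h the cKO points of Irf7 (17146 and 16441) lie above the WT points (9105 and 8745), and those of Irf8 fall among the WT points.

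To ask whether loss of Nudt21 altered the family in resting macrophages, cKO was compared with WT at 0 h. None of the 8 genes was called by limma, by the fold and unadjusted p (0 genes), by the adjusted p (0 genes, against 1.03% of all) or at an unadjusted p under 0.05 alone (0 genes, against 21.3%), and by the first rule 14.6% of all genes were called, 8.99% higher and 5.61% lower. Over the 8 genes the log2 fold changes had a median of -0.11, and over all genes 0.10. Irf3 had the largest difference, at 985 ± 80.0 in cKO and 754 ± 61.0 in WT (log2 fold change 0.39, SE 0.14, adjusted p = 0.257). Irf7 had the lowest value, at 214 ± 14.1 and 253 ± 36.3 (log2 fold change -0.23, SE 0.16, adjusted p = 0.484). For Irf3 and Irf9 both cKO samples lay above the WT samples, for Irf5 and Irf7 both lay below, and such separation was found in 57% of all genes. The other log2 fold changes were 0.15 for Irf9, -0.17 for Irf5, -0.12 for Irf1, -0.10 for Irf8, -0.11 for Irf4 and -0.02 for Irf2. The SE was 0.71 for Irf4 and 0.10 to 0.16 for the other members, so small changes of Irf4 were not detectable.

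After overnight IFNγ and 4 h of LPS, cKO cells held more Irf7 than WT cells. Irf7 coverage was 16793 ± 498 in cKO and 8925 ± 254 in WT, a 1.88-fold difference in limma (log2 fold change 0.91, SE 0.10, adjusted p = 0.0542). The lowest cKO sample was well above the highest WT sample. Irf7 was the 1 gene of 8 called, against 20.8% of all genes called higher and 4.17% called lower, so the share of called members was not above the background. With the adjusted p no member was called in either direction (0 genes, against 3.86% of all), and 4 had an unadjusted p under 0.05, as did 34.3% of all genes. The adjusted p of Irf7 passed 0.05 with a pseudocount of 1 (0.0438), with all 8 samples in the fit (0.0137) and with an intensity trend in the variance (0.00135), and ranged from 0.00135 to 0.324 over all alternatives, the highest without cKO replicate 4. With samples scaled to equal total coverage the Irf7 difference was 0.7 (limma adjusted p = 0.104) and still called, and that of Irf1 was 0.303. With samples centred on their medians the Irf7 difference was 0.58 (adjusted p = 0.145), just under the fold needed for a call, and no member was called, against 10.4% of all genes called higher and 9.9% lower.

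Irf1, Irf5 and Irf3 were the other 3 with an unadjusted p under 0.05, and none of them reached the fold. Irf1 was 20437 ± 1603 in cKO and 14285 ± 150 in WT (log2 fold change 0.51, SE 0.12, adjusted p = 0.0934). Irf5 was 6617 ± 139 and 5081 ± 85.9 (log2 fold change 0.38, SE 0.10, adjusted p = 0.109). Irf3 was 345 ± 3.84 and 278 ± 7.6 (log2 fold change 0.31, SE 0.10, adjusted p = 0.144). The cKO samples lay above the WT samples for all 3 genes, and such separation in either direction was found in 66% of all genes. Relative to the median gene, Irf1 lay at 0.21, Irf5 at 0.07 and Irf3 at 0.

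The other 4 members were not called. Irf9 was 1551 ± 35.8 in cKO and 1324 ± 7.59 in WT (log2 fold change 0.23, adjusted p = 0.218), and its difference turned to -0.11 with centred samples. Irf8 was 27677 ± 606 and 27959 ± 2767, with overlapping samples (log2 fold change -0.01, SE 0.13, adjusted p = 0.96). Irf2 was 1693 ± 30.2 and 1778 ± 88.3 (log2 fold change -0.07, adjusted p = 0.672) and Irf4 33.5 ± 4.12 and 36.0 ± 3.51 (log2 fold change -0.10, adjusted p = 0.68). These last 3 lay 0.32 to 0.41 below the median gene. In shares of Irf coverage, Irf8 took 46.8% ± 2.26 in WT and 36.8% ± 1.13 in cKO, Irf7 took 14.9% ± 0.354 and 22.4% ± 0.919, and Irf1 took 23.9% ± 1.48 and 27.1% ± 1.91.

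**Figure D4:**
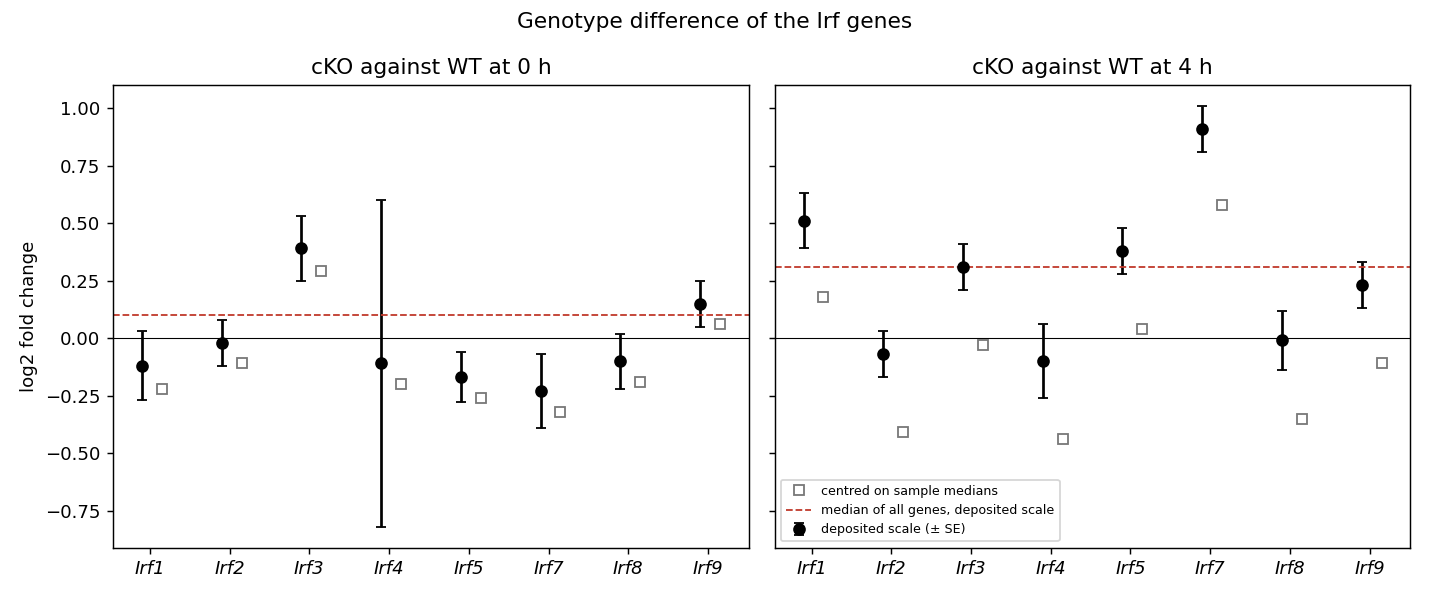
Log2 fold change of coverage, cKO against WT, for the 8 Irf genes at 0 h (left) and 4 h (right). Filled points with SE bars are on the deposited scale, open squares are after centring each sample on its median, and the dashed line is the median of all genes (0.10 and 0.31); at 4 h Irf7 stands at 0.91 and the others between -0.10 and 0.51.

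Whether the genotype difference itself changed with stimulation was tested as an interaction over the 8 samples, at an adjusted p under 0.05. No member passed (0 genes, against 3.05% of all genes), and 3 had an unadjusted p under 0.05, as did 22.1% of all genes. Irf7 came closest, going from -0.23 at 0 h to 0.91 at 4 h (difference 1.14, SE 0.19, adjusted p = 0.0509). Irf5 went from -0.17 to 0.38 (difference 0.55, SE 0.13, adjusted p = 0.0935) and Irf1 from -0.12 to 0.51 (difference 0.64, SE 0.18, adjusted p = 0.134). The other 5 differences lay between -0.07 and 0.09, and the median gene at 0.20. With centred samples the Irf7 difference was 0.88 (adjusted p = 0.116). The greater stimulation fold of Irf7, Irf5 and Irf1 in cKO was therefore not shown to differ from that in WT at the threshold set.

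The genes with the most alike patterns were found by the root mean square difference (RMS, in log2 units) over the 8 samples, after centring on the sample median and the gene's mean, among the 12024 genes whose mean coverage reached 10. Irf7 lay closest to Slfn4 and Gbp7 (RMS 0.15 each). Irf1 lay closest to Rgcc (0.14) and Ehd1 (0.15), and Irf8 to Cdk5r1 (0.09) and Zfp800 (0.10). Irf5 lay closest to Lrrc59 (0.06) and H2afy (0.07), Irf9 to Psma5 (0.05) and Ranbp1 (0.07), Irf2 to Arpc2 and Aftph (0.06 each), and Irf3 to Fam114a2 (0.04) and Gnl3 (0.05). Irf4 had no near match, its closest being Spata13 (0.29) and Mapk13 (0.32). Within the family Irf5 and Irf9 were the most alike pair (0.25), then Irf2 and Irf5 (0.29), Irf1 lay nearest to Irf7 (0.65), and Irf3 and Irf7 were the least alike (3.61). A small difference describes these samples only, which share libraries and stimulation.

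Genes that act above the Irf proteins were then described from lists. Counts of called list genes are set beside the shares of all genes called by the same rule, which were 11.9% higher and 55.1% lower on stimulation in WT, 13.7% and 53.2% in cKO, and 20.8% and 4.17% for cKO against WT at 4 h. Of 12 IRF-activating kinases and adaptors, 4 rose and 3 fell at 4 h in WT, and 5 rose and 4 fell in cKO. After centring 9 were higher and 2 lower in WT and 7 and 2 in cKO, against 33.5% of all genes higher and 22.4% lower in WT and 32.7% and 23.2% in cKO. The falls of Irak1 (-1.58 in WT, -1.23 in cKO) and of Ticam2 in cKO (-0.75) were not called after centring. Myd88, the adaptor of most Toll-like receptors, rose by 2.06 in WT and 2.24 in cKO, and Mavs, the adaptor of RNA sensors, fell (log2 fold changes of -3.20 and -3.12). Between genotypes at 4 h, Traf3 (log2 fold change 0.84, adjusted p = 0.0561) and Traf6 (0.65, adjusted p = 0.0678), ubiquitin ligases below the receptors, were higher in cKO. Ticam2, which links TLR4 to TRIF, was lower (-0.68, adjusted p = 0.0946). At 0 h Traf3 was the 1 of 12 called (1.42, adjusted p = 0.111), against 8.99% of all genes called higher, and after centring Tmem173 was called lower as well. The list's median was 0.11 at 4 h, below the 0.31 of all genes, and after centring 0 of its genes were called higher and 3 lower at that time, against 10.4% and 9.9% of all genes.

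Of 9 interferon receptors, Janus kinases and STATs, none was called between genotypes at 4 h (0 genes), with a range from Ifnar1 at -0.32 to Stat2 at 0.42, against 20.8% of all genes called higher and 4.17% lower. After centring 3 of the 9 were called lower in cKO at 4 h (Ifnar1, Ifngr1 and Jak2), against 9.9% of all genes. Ifngr1, the ligand-binding chain of the IFNγ receptor, was lower in cKO at 0 h (log2 fold change -0.66, adjusted p = 0.122). On stimulation 3 rose and 2 fell in each genotype, against 11.9% of all genes higher and 55.1% lower in WT and 13.7% and 53.2% in cKO. After centring 8 were higher and 1 lower in each genotype, and Jak1, a kinase shared by the receptors, turned from called lower (-0.61 in WT, -0.59 in cKO) to called higher. Jak2, the kinase of the IFNγ receptor, rose by 3.84 in WT and 3.72 in cKO, and Ifngr1 fell (log2 fold changes of -2.78 and -2.43).

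The 9 partners and corepressors included the binding proteins of Irf2. Irf2bp1 and Irf2bp2 fell on stimulation in both genotypes, Irf2bp1 with a log2 fold change of -3.29 in WT and -2.11 in cKO, Irf2bp2 with -4.81 in WT and -3.53 in cKO. At 4 h both were higher in cKO than in WT (log2 fold change 1.32, adjusted p = 0.0466, and 1.29, adjusted p = 0.0529). At 0 h they differed by 0.15 and 0. Irf2bpl, the third of these proteins, also fell on stimulation (-3.00 in WT, -3.27 in cKO), and stood at -0.43 between genotypes at 4 h (adjusted p = 0.201), not called on the deposited scale and called lower in cKO after centring. Of the list 2 genes were higher and 1 lower at 4 h, against 20.8% and 4.17% of all genes, and after centring 2 were higher and 3 lower, against 10.4% and 9.9%. Batf3, a partner of Irf8 in dendritic cells, was lower in cKO at 0 h (-1.20, adjusted p = 0.191) and 4 h (-0.98, adjusted p = 0.0541). The genotype effect on Irf2bp1 differed between the times (difference 1.17, adjusted p = 0.0419) on the deposited scale and not after centring. Batf2, induced by IFNγ, rose most of the list, by 5.83 in WT and 6.98 in cKO.

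Of 8 negative regulators of interferon signalling, 6 rose on stimulation in each genotype (all genes: 11.9% in WT, 13.7% in cKO), with a median of 4.34 in WT and 4.46 in cKO. At 4 h Socs1, the feedback inhibitor of JAKs, was called higher in cKO (1 gene of 8, against 20.8% of all genes, difference 0.77 in log2, adjusted p = 0.0881), and was -1.39 at 0 h with an SE of 0.50. At 0 h 0 of the 8 were called, against 14.6% of all genes.

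Among the targets, all 10 tested genes of ISGF3 rose on stimulation in both genotypes, where 11.9% of all genes in WT and 13.7% in cKO did, Cxcl10 by 12.62 in WT and 14.46 in cKO and Oas1a by 2.43 and 3.04. Mx1 and Mx2, the other two of the list, had no row in the tables. At 4 h, 1 of the 10 was called between genotypes, Rsad2 (0.85, adjusted p = 0.112), which is not above the 20.8% of all genes called higher, and the list's median of 0.06 lay below that of all genes. At 0 h 2 of the 10 were lower in cKO, against 5.61% of all genes. These were Ifi44 (-2.46, adjusted p = 0.0649) and Cxcl10 (-1.85, adjusted p = 0.148), and the genotype effect on Ifi44 differed between the times (difference 2.51, adjusted p = 0.012), also after centring, the 1 of 10 that did against 3.05% of all genes. Of 12 IRF1 and IRF8 targets, all 12 rose on stimulation in both genotypes. At 0 h 2 of the 11 tested were lower in cKO and 0 higher, with a median of -0.50. These were Gbp3, an interferon-inducible GTPase (-0.60, adjusted p = 0.134), and Cxcl9, against 5.61% of all genes called lower. After centring 4 of the 11 were lower, against 6.98% of all genes lower and 7.25% higher. At 4 h 3 of the 12 were called, all higher in cKO, near the 20.8% of all genes, with a median of 0.10. These were Ciita, the master regulator of MHC class II (1.22, adjusted p = 0.0567), Nos2, which makes nitric oxide (1.14, adjusted p = 0.0478), and Psmb8, an immunoproteasome subunit (0.66, adjusted p = 0.0648). The genotype effect of 3 of the 12 differed between the times on the deposited scale (Gbp3, adjusted p = 0.0462, Psmb8, 0.0479, and Nos2, 0.0202), against 3.05% of all genes, and of 0 after centring. Nos2 was listed at 0 in all 0 h samples and Cxcl9 in both cKO samples at 0 h, so no fold is given against those, and the difference between the times holds only the 4 h genotype effect for Nos2. Il12b, also on this list, differed by -0.10 at 4 h (adjusted p = 0.626), and the list ranged from Il18 at -0.35 to Ciita at 1.22.

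Among the genes of alternative activation associated with Irf4, Mrc1, the mannose receptor, was lower in cKO at both times (-0.89, adjusted p = 0.134, and -1.68, adjusted p = 0.114), and Ccl24 was higher at 4 h (1.40, adjusted p = 0.127). Irf4 itself was not called between genotypes at either time. Of the list genes called at 4 h, Ciita, Nos2, Irf2bp1, Irf2bp2, Batf3, Ticam2 and Mrc1 were also called after centring on sample medians, and Traf3, Traf6, Socs1, Rsad2, Psmb8 and Ccl24 were not.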

How the data were processed

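RNA-seq was analysed for 8 BMDM samples in 4 groups. The authors aligned reads with HISAT2 2.2.1 and quantified RefSeq genes with StringTie 2.1.7 (mm10), per the labels and the paper's methods. The deposited value per gene and sample was a coverage signal with no scaling between samples. Its header names no unit, which was read from the values. The deposited fold changes and p-values of the authors' own comparisons were not used, and 0 columns of sample values were left out. The 0 h samples carry the stimulation label too and were taken as untreated from their titles.

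Since the values are not counts, values were log2-transformed with a pseudocount of 0.1 and compared on the deposited scale with limma 3.58.1 (R 4.3.3), leaving out genes whose mean over the compared samples was under 0.5. Calls used the study's rule (fold above 1.5, p under 0.05), and p-values were adjusted by Benjamini-Hochberg over all genes tested. The fit was tested on simulated data. Fold changes of low genes are understated by the pseudocount. Each sample pooled cells of 2 mice, and the paper describes BMDM data points as biological replicates from different mice. With 2 such pools per group, p-values rest on the spread between these samples only.

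The members and gene lists were chosen with earlier results of these data known. Named genes were the 8 members, Nudt21, the 2 most alike genes of each member, and the highest and lowest of each list in a comparison. Other called list genes were named after their values were seen. Sting1 was read under its older symbol Tmem173. Positions and 3′UTRs came from GENCODE M21 and promoters from RefSeq. Alternatives covered the pseudocount, filter, scaling, variance trend, samples in the fit, replicate block and call rule. Some items are not reported here.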

Additional observations from a re-analysis of the deposited data

Results flagged for a closer look

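Irf7 stood out because its cKO samples lay below both WT samples at 0 h and above both at 4 h. The genotype difference changed by 1.14 on the log2 scale between the times, with an adjusted interaction p of 0.0509 in limma over the 8 samples, which did not pass the threshold.

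Irf5 showed the same crossing. Its genotype difference changed by 0.55 on the log2 scale (adjusted p = 0.0935), which did not pass either. Samples separated by genotype in 57% of all genes at 0 h and 66% at 4 h.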

How the results depend on the processing

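With 2 samples per group the spread is poorly known, and a missed threshold does not show that values were alike. DESeq2 and edgeR were not run because the values are not counts. At 4 h the number of Irf genes called between genotypes went from 1 to 0 with samples centred on their medians and to 0 with an adjusted p, and stayed at 1 with any sample left out. By the adjusted p Irf1, Irf5 and Irf7 passed 0.05 at 4 h with all 8 samples in the fit (0.0457, 0.0396 and 0.0137) and with the intensity trend (0.00739, 0.0106 and 0.00135). The number whose genotype effect differed between the times went from 0 to 1 with a pseudocount of 1 (Irf7, adjusted p = 0.0484), to 3 with an intensity trend in the variance (Irf7 at 0.00952, adjusted p from 0.00952 to 0.188 over all alternatives) and to 3 with an unadjusted p. The causes were not tested. Over all genes the calls fell from 2373 to 167 at 0 h and from 3736 to 577 at 4 h with an adjusted p, to 2243 at 4 h without cKO replicate 4, and from 496 to between 184 and 320 in the interaction when any 1 sample other than a WT sample of 4 h was left out, and rose to 1282 with the trend.

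Among the 8 Irf genes directions turned only in values that were not called, apart from Irf3 on stimulation in WT, which went to 0.0156 with centring. Jak1, called lower on stimulation in both genotypes, was called higher with centring. For cKO against WT at 0 h, leaving out a sample moved Irf2 between -0.0407 and 0.00894 (0.00542 also above 0) and Irf4 between -0.729 and 0.508 (0.501 also above 0). At 4 h, centring and quantile normalization turned Irf3 to -0.0255 and -0.0174 and Irf9 to -0.108 and -0.0269, and leaving out a sample moved Irf8 between -0.112 and 0.0899 (0.0111 also above 0) and Irf4 between -0.229 and 0.0213. In the interaction, centring turned Irf4 to -0.259, Irf8 to -0.176 and Irf9 to -0.189, quantile normalization turned Irf4 to -0.19 and Irf9 to -0.0513, and equal total coverage turned them to -0.0827 and -0.0124. Leaving out a sample there moved Irf3 between -0.157 and 0.00885, Irf4 between -0.612 and 0.625 and Irf8 between -0.0113 and 0.191.

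Replicate numbers recur between the times within a genotype, so same-numbered samples may come from the same mice. They deviated together with a correlation of only 0.0204 in WT and 0.0237 in cKO over 16284 genes. With 2 samples per group this cannot show that they were unpaired. The main fits did not use the numbers as pairs. With the replicate number as a block 6 Irf genes were called on stimulation in WT, 7 in cKO and 0 in the interaction, as without it, and the interaction called 31 genes in all. WT and cKO share no number, so no block was possible between genotypes.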
